A study of Mus musculus with 7 samples.

Results

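The transcripts described here encode 9 collagen chains of connective tissue stroma, measured in the lens epithelium of mice without SPARC. They are the chains of collagen I (Col1a1, Col1a2), collagen III (Col3a1), collagen V (Col5a1, Col5a2) and collagen VI (Col6a1, Col6a2, Col6a3), and the chain of collagen XII (Col12a1). Every probe set that the platform annotation pairs with 1 of these symbols alone was taken, which gave 20 of the 45037 probe sets tested, for 9 of the 18193 genes with a symbol of their own. The tested mice, called KO, were SPARC-null on a C57Bl/6 background, with 4 lenses from 3 animals (lenses 1L and 1R of animal 1, 4L and 7L). The controls, called WT, were wild-type mice on a C57Bl/6 background, with 3 lenses from 3 animals (2L, 5L and 6L). All 6 animals came from 1 litter, were 28 days old and had normal housing. Animal 7 was male and the other 5 were female. Laser capture, a dissection under the microscope, took epithelial cells out of stained frozen sections, and each lens had its own Affymetrix array after 2 rounds of RNA amplification. The labels give no tissue or cell type to which the loss of SPARC is limited, and do not say which part of the gene is missing.

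Collagens are built from 3 chains wound into a helix of repeating glycine triplets. Collagens I and III form the fibrils of skin, sclera, cornea and other stroma, collagen V starts and narrows those fibrils, and collagen VI makes a beaded network around cells. SPARC is a secreted protein that binds several collagens, fibrillar ones and collagen IV among them, and affects their assembly in the matrix. The lens itself has no stroma: its epithelium sits on a capsule whose main collagen is collagen IV, so the 9 chains are better known from the cornea, iris, ciliary body and sclera nearby.

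The label check came first. Sparc had signals of 70.5, 17.4, 50.6 and 8.14 in KO lenses 1L, 1R, 4L and 7L, against 27371, 49972 and 49724 in WT lenses 2L, 5L and 6L, at its brightest probe set. Bacterial control probe sets, which have no target in mouse RNA, reached 45.5, and that value serves here as a gauge of background. The lens markers Cryaa (29668 to 38201 in KO, 19271 to 37939.5 in WT), Cryab, Pax6 and Cdh1 lay far above it in every lens, and Foxe3, a transcription factor of lens epithelium, did not exceed it in 4 of the 7. WT lens 2L stood apart from the other arrays. Its Gapdh signal at the 3′ end over that at the 5′ end, a measure of RNA integrity, was 3.75 (others 9.06 to 15.9). The same ratio for beta-actin was 5.89 (others 13.8 to 23.8). A lower ratio means less loss of 5′ signal, so by this measure 2L was the least truncated array. Its BioB spike, a control added to every sample, was 848 (others 1321 to 1907). The highest signal of any probe set was 28328 on this array (others 42153 to 53056). Per animal the Gapdh ratio was 11.6 ± 2.38 in KO and 9.57 ± 6.09 in WT (SD, n = 3 each). A two-sided exact permutation test gave p = 0.7, and no p below 0.1 can be had with 3 animals against 3.

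No collagen chain of the set passed the test between KO and WT animals. All 20 probe sets had a limma adjusted p of 0.99988, where 3 of 45037 probe sets, or 0.00666%, passed an adjusted p of 0.05. At an unadjusted p under 0.05 there were 2 of the 20, a probe set of Col1a1 and one of Col1a2, both lower in KO, beside 4.06% of all probe sets. KO and WT lenses overlapped at each of the 20, while they did not overlap at 5.33% of all probe sets. The log2 difference, KO minus WT, was below 0 at 13 of 20 (51.6% of all probe sets) and had a median of -0.21, beside -0.01 over all probe sets. It ran from -1.04 to 0.78. The 9 leading probe sets, meaning for each gene the one with the highest mean level, had 6 lower and 3 higher in KO and a median of -0.23. In bulk RNA fewer cells of a type and less RNA per cell cannot be told apart. Both lenses of KO animal 1 were averaged, so that n = 3 animals in each group.

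**Figure D1:**
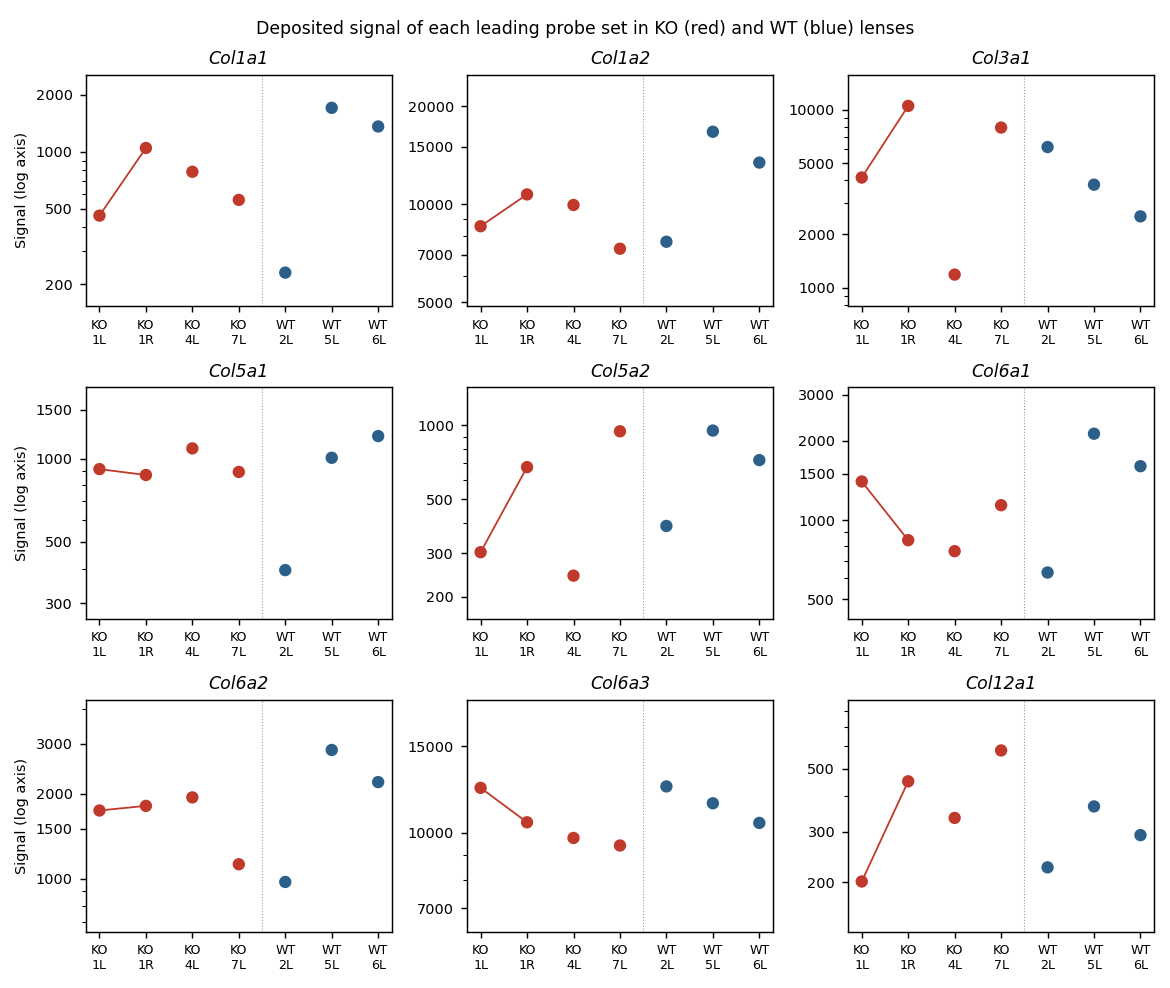
Deposited signal (log axis, a scale of its own in each panel) of the leading probe set of each of the 9 collagen genes, with KO lenses in red on the left, WT lenses in blue on the right and a line joining the lenses of KO animal 1. Col1a1 runs from 230 in WT 2L to 1708 in WT 5L, Col3a1 from 1185 in KO 4L to 10479 in KO 1R, and Col6a3 only from 9407 to 12422.

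Promoter sequence is shown for 4 of the chains, because Col1a2 and Col6a2 were the second closest pair in profile over the lenses, Col6a1 lies near Col6a2 on chromosome 10, and Col3a1 had the profile least like the others. The windows run from 250 bases before to 50 after the gene's start in RefSeq (build GRCm38.p6), 5′ to 3′ on the strand of the gene. Capitals mark matches to the letters of the CCAAT box, the GC box GGGCGG and the TATA box TATAAA on either strand. Col1a2 lies at chr6:4505368-4505667 (plus strand), Col6a2 at chr10:76623355-76623654 and Col6a1 at chr10:76725995-76726294 (both minus strand), and Col3a1 at chr1:45311288-45311587 (plus strand).
Col1a2: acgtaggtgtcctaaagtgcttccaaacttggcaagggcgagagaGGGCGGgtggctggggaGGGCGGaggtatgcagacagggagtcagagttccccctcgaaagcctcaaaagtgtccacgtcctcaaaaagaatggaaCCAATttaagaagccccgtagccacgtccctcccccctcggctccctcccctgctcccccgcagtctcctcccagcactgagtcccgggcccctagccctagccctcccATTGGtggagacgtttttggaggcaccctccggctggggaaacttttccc
Col6a2: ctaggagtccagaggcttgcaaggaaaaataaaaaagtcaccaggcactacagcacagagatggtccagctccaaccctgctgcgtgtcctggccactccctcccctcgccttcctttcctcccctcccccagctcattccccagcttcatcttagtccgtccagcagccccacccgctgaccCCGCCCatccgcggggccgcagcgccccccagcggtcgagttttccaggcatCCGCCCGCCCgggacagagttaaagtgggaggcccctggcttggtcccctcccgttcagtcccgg
Col6a1: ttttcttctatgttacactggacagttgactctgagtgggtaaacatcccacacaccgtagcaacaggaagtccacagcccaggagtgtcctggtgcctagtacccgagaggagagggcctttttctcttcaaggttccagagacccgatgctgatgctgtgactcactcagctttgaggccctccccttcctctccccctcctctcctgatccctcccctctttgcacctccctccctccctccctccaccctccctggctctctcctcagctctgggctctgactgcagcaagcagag
Col3a1: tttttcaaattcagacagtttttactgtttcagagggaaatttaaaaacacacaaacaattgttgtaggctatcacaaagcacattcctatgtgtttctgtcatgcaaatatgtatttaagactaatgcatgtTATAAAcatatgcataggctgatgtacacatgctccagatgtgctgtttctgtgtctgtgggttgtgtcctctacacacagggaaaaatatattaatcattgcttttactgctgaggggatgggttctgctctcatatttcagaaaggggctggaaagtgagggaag
Col1a2 held 2 CCAAT and 2 GGGCGG matches, and Col6a2 held 3 GGGCGG matches, of which a pair overlap. Col3a1 held 1 TATAAA and Col6a1 held none of the 3 motifs. The Col3a1 TATAAA began 117 bases before the start, and 1 of the CCAAT matches of Col1a2 began at the start itself. Of the 7 windows at hand for the chains, 1 held CCAAT, 4 GGGCGG and 1 TATAAA. Of 32851 RefSeq windows of the same length, 37.4% held CCAAT, 35.7% GGGCGG and 13.6% TATAAA on either strand. The window of Col5a1, the chain closest to Col6a2 in profile, is not printed and held 2 GGGCGG matches at 75% GC. GC content was 61.0% for Col1a2, 64.3% for Col6a2, 57.3% for Col6a1 and 37.7% for Col3a1, beside a median of 52.7% over all windows. Entries were at hand for 6 of the 9 genes, with Col5a1, Col6a3 and another window of Col6a2 among those not printed, and no entry for Col1a1, Col5a2 and Col12a1. These matches describe letters only. Col3a1 and Col5a2 are next to each other on chromosome 1 in the reference order, and 2 genes that code for no protein lie between Col6a2 and Col6a1.

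Collagen I is a fibril of a pair of alpha1 chains and a single alpha2 chain. Col1a1, the alpha1 chain, had signals of 461 (1L), 1048 (1R), 785 (4L) and 558 (7L) in KO lenses, against 230 (2L), 1708 (5L) and 1361 (6L) in WT lenses, at its leading probe set. The KO lenses therefore lay between WT 2L and the other 2 WT lenses. On the log2 scale the level was 9.43 ± 0.27 in KO and 9.70 ± 1.57 in WT (SD, n = 3 each), a difference of -0.27 (SE 0.62, limma adjusted p = 0.99988). Its sign turned when WT animal 5 (0.26) or WT animal 6 (0.11) was left out. The other Col1a1 probe set had signals of 166, 174, 155 and 101 in KO lenses 1L, 1R, 4L and 7L, against 165, 424 and 336 in WT lenses 2L, 5L and 6L. WT 2L again lay at the KO level and the other 2 WT lenses above it. The difference there was -1.04 (SE 0.40, fold 0.487, limma unadjusted p = 0.0278).

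Col1a2, the alpha2 chain, had signals of 8556, 10720.1, 9946 and 7296 in KO lenses 1L, 1R, 4L and 7L, against 7666, 16711 and 13431 in WT lenses 2L, 5L and 6L. In these signals all KO lenses lay below WT 5L and 6L, and 3 of them above WT 2L. After quantile normalization KO 1L lay below WT 2L too (13.02 against 13.13 log2). The log2 level averaged 13.11 ± 0.15 in KO and 13.54 ± 0.38 in WT (difference -0.43, SE 0.22, limma adjusted p = 0.99988). The next Col1a2 probe set had 1262, 2552, 1058 and 1729 in KO lenses 1L, 1R, 4L and 7L, against 2214, 4142 and 2488 in WT lenses 2L, 5L and 6L. There 3 of the 4 KO lenses lay below all WT lenses, and 1R above 2L and 6L. The difference was -0.89 (SE 0.29, fold 0.541, limma unadjusted p = 0.0119). The weakest Col1a2 probe set ran from 35.5 to 111 in KO and from 30.3 to 71.7 in WT, with 2 lenses under the highest bacterial control, and differed by 0.25 (SE 0.40).

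Col3a1 encodes the single chain of collagen III, which mixes into collagen I fibrils of soft and distensible tissues. Its signals were 4153 (1L), 10479 (1R), 1185 (4L) and 7921 (7L) in KO lenses, against 6159 (2L), 3787 (5L) and 2514 (6L) in WT lenses. The highest 2 lenses and the lowest lens of the 7 were all KO. KO animals thus spread more widely than WT animals, with a log2 level of 12.02 ± 1.52 over KO animals, against 11.97 ± 0.73 over WT animals (SD, n = 3 each). The difference of 0.05 (SE 0.65, limma adjusted p = 0.99988) had no stable sign. It was -0.48 without KO animal 7, -0.29 without KO animal 1, -0.29 without WT animal 6 and 0.91 without KO animal 4. The other Col3a1 probe set ran from 77.3 to 698 in KO and from 113 to 178 in WT and differed by 0.78 (SE 0.62), with 3 KO lenses above all WT lenses and 4L below them.

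Collagen V is a minor fibrillar collagen on which collagen I fibrils nucleate. Col5a1, its alpha1 chain, had 917, 873, 1089 and 895 in KO lenses 1L, 1R, 4L and 7L, against 395, 1007 and 1207 in WT lenses 2L, 5L and 6L. WT 2L was the low lens, and the 4 KO lenses lay close together near WT 5L. The log2 level was 9.92 ± 0.20 in KO and 9.64 ± 0.91 in WT (difference 0.29, SE 0.40, limma adjusted p = 0.99988). The difference was -0.23 without WT animal 2. The other Col5a1 probe sets differed by -0.21 (SE 0.32) and -0.20 (SE 0.24), and the last of these never exceeded the highest bacterial control.

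Col5a2, the alpha2 chain, was nearer in lens profile to Col12a1 than to Col5a1 (root mean square difference 0.53 against 0.79 log2). Its signals were 304, 675, 244 and 945 in KO lenses 1L, 1R, 4L and 7L, against 389, 952 and 721 in WT lenses 2L, 5L and 6L. KO 7L lay close to WT 5L, and KO 1L and 4L were the lowest of all. The difference was -0.44 (SE 0.48) from 8.93 ± 0.91 log2 in KO and 9.37 ± 0.71 in WT (SD, n = 3 each, limma adjusted p = 0.99988), and it was -0.15 without WT animal 5 and -0.84 without WT animal 2. Without KO animal 4 it came to -0.00497, and without KO animal 7 to -0.91. The second probe set of Col5a2 had 3 KO lenses (112 to 196) at or below the WT lenses (196 to 267) and KO 7L above them at 393, a difference of -0.30 (SE 0.43).

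Collagen VI is a heterotrimer whose alpha1 and alpha2 chains pair with a longer alpha3 chain. Col6a1 had 1402, 838, 762 and 1139 in KO lenses 1L, 1R, 4L and 7L, against 632, 2129.9 and 1603 in WT lenses 2L, 5L and 6L. The KO lenses lay below WT 5L and 6L and above WT 2L. The difference was -0.35 (SE 0.42), from log2 levels of 9.97 ± 0.28 in KO and 10.32 ± 0.96 in WT (SD, n = 3 each, limma adjusted p = 0.99988). Without WT animal 5 it was 0.01. Col6a2 had 1741, 1808, 1938 and 1123 in KO lenses 1L, 1R, 4L and 7L, against 972, 2852 and 2195 in WT lenses 2L, 5L and 6L, with KO again between WT 2L and the other WT lenses. Its difference was -0.17 (SE 0.40), or 0.16 without WT animal 5 and 0.08 without KO animal 7. The other Col6a2 probe set differed by -0.38 (SE 0.32).

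Col6a3, the alpha3 chain, varied least in deposited signal among the leading probe sets. Its signals were 12340.1, 10493, 9748 and 9407 in KO lenses 1L, 1R, 4L and 7L, against 12422, 11476 and 10463 in WT lenses 2L, 5L and 6L. The highest lens was 1.32-fold above the lowest, where the same ratio was 7.42 for Col1a1 and 8.85 for Col3a1. WT 2L, the lowest lens for Col6a1 and Col6a2, was the highest for Col6a3. After quantile normalization its log2 level ran from 13.15 in KO 4L to 13.99 in WT 2L. The difference was -0.23 (SE 0.23, limma adjusted p = 0.99988), and -0.01 without WT animal 2.

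Col12a1 encodes collagen XII, which lies on the surface of collagen I fibrils. It had 201, 452, 336 and 579.6 in KO lenses 1L, 1R, 4L and 7L, against 225, 369 and 292 in WT lenses 2L, 5L and 6L, so that KO 7L and 1R were highest and KO 1L lowest. The difference was 0.37 (SE 0.33), from log2 levels of 8.66 ± 0.48 in KO and 8.28 ± 0.40 in WT (SD, n = 3 each, limma adjusted p = 0.99988). It was 0.10 without KO animal 7 and 0.16 without WT animal 2, but 0.56 without KO animal 1 and likewise without WT animal 5. The next probe set differed by 0.23 (SE 0.38). The remaining 2 Col12a1 probe sets did not exceed the highest bacterial control anywhere.

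**Figure D2:**
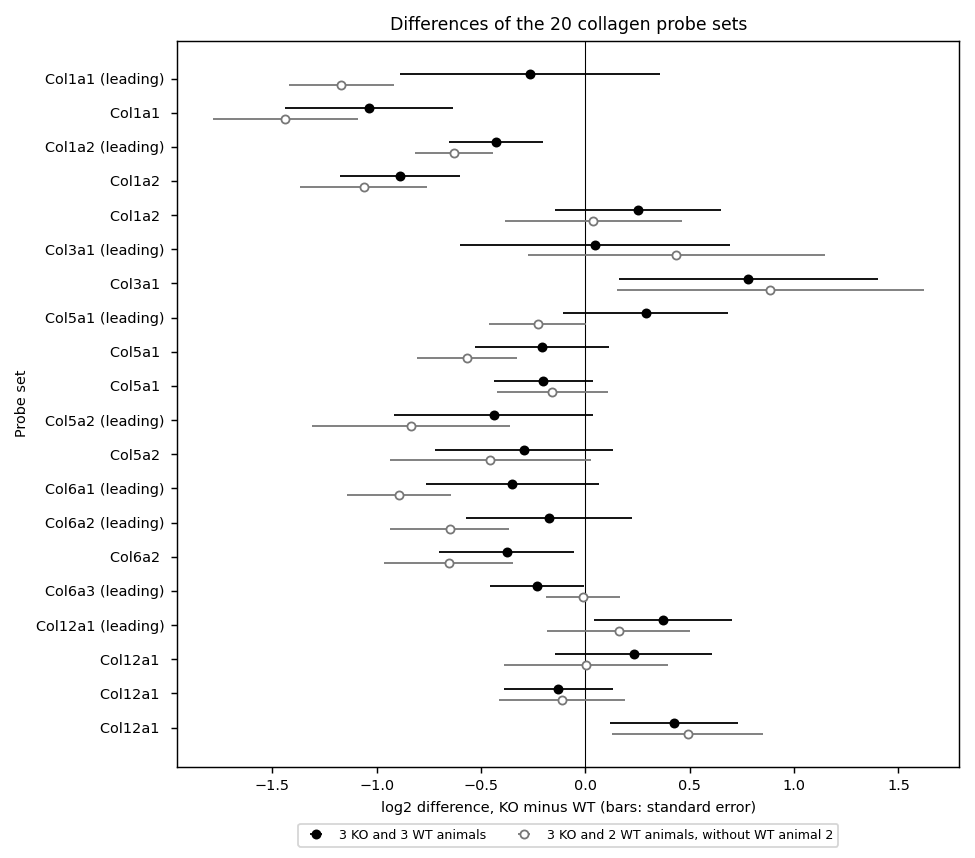
The log2 difference, KO minus WT, of each of the 20 collagen probe sets (points) with its standard error (bars), over all 6 animals (filled) and without WT animal 2 (open). Over all animals the values run from -1.04 to 0.78, and without WT animal 2 the Col1a1 points are at -1.17 and -1.44, while the weakest Col1a2 probe set is at 0.04.

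The chains did not share a single profile over the lenses. WT 2L was the lowest of the 7 lenses at 4 of the 9 leading probe sets (Col1a1, Col5a1, Col6a1 and Col6a2), where it was lowest at 17.0% of 11704 genes above the median level. WT 5L was the highest at 5 (Col1a1, Col1a2, Col5a2, Col6a1 and Col6a2), where it was highest at 10.1%. KO 4L was lowest at 3 (Col3a1, Col5a2 and Col6a3), beside 11.4%. The root mean square difference between centred log2 profiles, over the 7 lenses, was 0.33 for Col5a1 and Col6a2, 0.35 for Col1a2 and Col6a2 and 0.43 for Col6a1 and Col6a2, the 3 closest of 36 pairs. The partner chains of 1 collagen were not always close, at 0.69 for Col1a1 and Col1a2, 0.79 for Col5a1 and Col5a2 and 0.73 for Col6a1 and Col6a3. Col1a1 and Col3a1 were the most distant pair at 1.56. Different probe sets of 1 gene were 0.26 (Col6a2) to 0.67 (Col1a1) apart. These are descriptions over 7 lenses that share a litter and, for 1L and 1R, an animal.

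**Figure D3:**
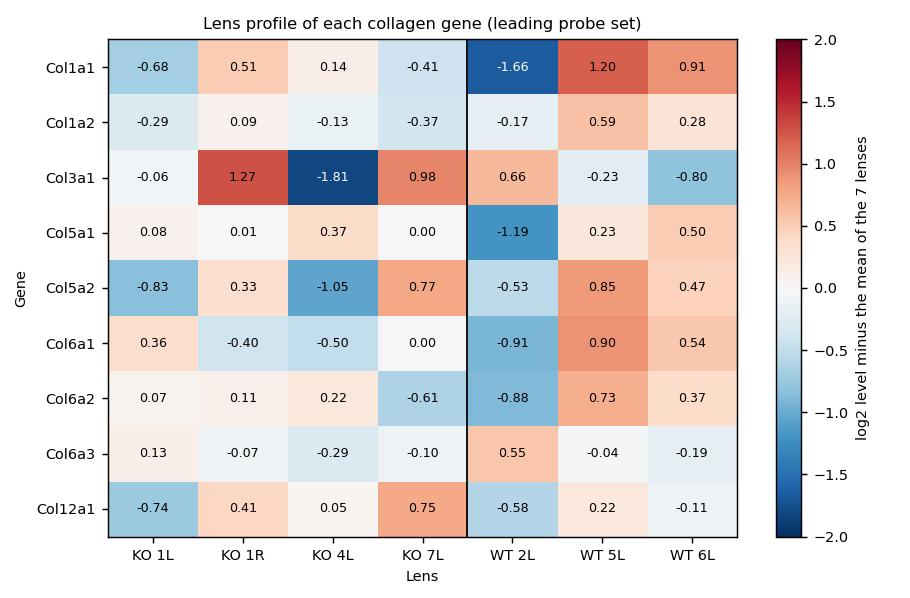
Heat map of the leading probe set of each collagen gene (rows) in the 4 KO and 3 WT lenses (columns), as log2 level minus the gene's mean over the 7 lenses. Col1a1 is at -1.66 and Col5a1 at -1.19 in WT 2L, whereas Col3a1 is at -1.81 in KO 4L and 1.27 in KO 1R.

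The 2 lenses of KO animal 1 were also set against each other. The gap between 1L and 1R was larger than the KO minus WT difference at 5 of the 9 leading probe sets and 13 of the 20, beside 68.5% of all probe sets, so this was no more frequent among the collagens. Its median size was 0.76 at the leading probe sets and 0.42 over all probe sets. The median size of the group difference was 0.29 at the leading probe sets and 0.22 over all. Lens 1R lay above 1L by 1.33 log2 at Col3a1, 1.18 at Col1a1, 1.16 at Col5a2 and 1.15 at Col12a1. At Col6a1 1L lay above 1R by 0.76, and at Col6a2 and Col5a1 the lenses differed by 0.03 and 0.07.

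WT 2L stood apart with the lowest 3′ over 5′ ratios and the lowest spike signal. The fit without WT animal 2, one of 6 that leave out an animal, is given in most detail. WT 2L was also the lowest WT lens at several chains, so leaving it out moves those chains towards lower in KO by construction. The counts without it are a description and give no support for a direction. Every KO lens then lay below both WT lenses at 7 of the 20 probe sets, of Col1a1 (both), Col1a2, Col5a1, Col6a1 and Col6a2 (both), beside 8.54% of all probe sets. At an unadjusted p under 0.05 there were 6 lower in KO, beside 2.65% of all. The Col1a1 difference was -1.17 (SE 0.25, limma adjusted p = 0.684) at the leading probe set and -1.44 (SE 0.35, limma adjusted p = 0.684) at the other. For Col1a2 it was -0.63 (SE 0.19) and -1.06 (SE 0.30), and for Col6a1 -0.89 (SE 0.25). A Col5a1 probe set that is not the leading one, the last of the 6, was at -0.57 (SE 0.24). Col6a2 was at -0.65 (SE 0.29) at its leading probe set and was not among the 6 (limma unadjusted p = 0.0517). None passed the adjustment, the smallest limma adjusted p among the 20 being 0.684. When another animal was left out, 0 to 2 of 20 were lower at an unadjusted p under 0.05. The share over all probe sets was 1.55% to 1.92%. Without KO animal 4 there were also 2 higher, both of Col3a1, beside 2.12% of all. Every KO lens lay below every WT lens at 2 of 20 without KO animal 1, beside 8.35% of all. This count was also 2 without KO animal 7, beside 5.54%. It was 0 without KO animal 4, WT animal 5 or WT animal 6, beside 5.37% to 5.62%. Without KO animal 4 every KO lens lay above every WT lens at 1 of 20 probe sets, of Col3a1. Over all probe sets KO and WT lenses then did not overlap at 9.83% in either direction, with KO lower at 5.37%. With 2 WT animals left, their spread rests on a single pair. The part of RNA integrity and array signal in these values was not tested.

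Genes with a lens profile most like the mean of the 9 chains were sought among 11695 other genes above the median level. The 8 closest were Zfp451 (root mean square difference 0.11 log2 over the 7 lenses), Cyp2c38 (0.12), Upk2 (0.13), Stx17 (0.14), Zfp267 (0.14), Mylk3 (0.15), Cdc73 (0.15) and Steap3 (0.15). No collagen gene was among them, and the mean profile runs only from -0.52 in WT 2L to 0.50 in WT 5L. The members themselves were 0.25 (Col1a2) to 1.00 (Col3a1) from it. Their KO minus WT differences ran from -0.29 (Upk2) to 0.04 (Steap3).

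Other parts of the collagen pathway gave no call either. Of 16 other collagen chains measured, 8 were lower and 8 higher in KO (median 0.08), and 0 passed the limma adjustment. At an unadjusted p under 0.05 there was 1 of 16, beside 4.06% of all probe sets. This was Col9a1, a chain of the collagen IX that coats cartilage and vitreous fibrils. Its signal was 1133 to 1553 in KO, against 738 to 985 in WT, with 4 of 4 KO lenses above all WT lenses (difference 0.67, SE 0.22, limma adjusted p = 0.99988). Col11a1, which nucleates fibrils of cartilage, differed by -0.75 (SE 0.42) and Col24a1, a fibrillar chain, by 0.83 (SE 0.57). Col24a1 was under the highest bacterial control in 6 lenses. Col2a1, the main chain of cartilage and vitreous, and Col9a2, Col6a5 and Col10a1 lay under that control throughout.

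Of 10 genes that trim or crosslink procollagen, 3 were lower and 7 higher in KO (median 0.07) and 0 passed either threshold. Pcolce, an enhancer of the proteinase that removes the C-propeptide, had signals of 16849 to 26981 in KO, against 9966 to 19961 in WT (difference 0.42, SE 0.21). Lox, which crosslinks fibrils, had 72.2 to 214 in KO and 161 to 276 in WT (difference -0.78, SE 0.42). Tll1, a proteinase related to Bmp1 that removes the C-propeptide, did not exceed the highest bacterial control in any lens. Of 10 collagen receptors, 4 were lower and 6 higher (median 0.07). At an unadjusted p under 0.05 there was 1 of 10, beside 4.06% of all probe sets. This was Ddr1, a receptor tyrosine kinase for collagens, with signals of 4264 to 8677 in KO, against 1765 to 5535 in WT, at its leading probe set (difference 1.04, SE 0.37, limma adjusted p = 0.99988). Ddr2, its relative, differed by -0.36 (SE 0.23) and Antxr2, a receptor that takes up collagen VI, by 0.53 (SE 0.30).

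The captured material also held transcripts of other cell types, and their signals varied between lenses. Sums of markers are of deposited signals, before quantile normalization. Of 10 stromal fibroblast and keratocyte markers, 10 were above the highest bacterial control in at least 1 lens. Their summed signal was 37510 to 51795 in KO and 37428 to 50532 in WT. Ogn (17520 to 26417 in KO, 17412 to 23533 in WT), Dcn, Pdgfra and Aldh3a1 carried this sum. It therefore says little about weaker markers such as Kera. Of the 10, 5 were lower and 5 higher in KO (median difference -0.00153). Kera, the keratocyte proteoglycan keratocan, had signals of 83.9 to 891 in KO, against 521 to 1064 in WT (difference -1.36, SE 0.60), with 3 of 4 KO lenses below all WT lenses. Dcn, the fibril-binding proteoglycan decorin, had 3234 to 10737 in KO and 5598 to 12741 in WT (difference -0.54, SE 0.40), and 3 of 4 KO lenses again lay below. Twist2 and Fap, a transcription factor and a surface protease of fibroblasts, differed by -0.72 (SE 0.44) and -0.63 (SE 0.40). Twist2 did not exceed the highest bacterial control in 5 lenses. In the other direction Lum, the stromal proteoglycan lumican, differed by 0.55 (SE 0.53), Dpt, the matrix protein dermatopontin, by 0.23 (SE 0.41) and Aldh3a1, a corneal crystallin, by 0.10 (SE 0.25). Pdgfra, a receptor of fibroblasts and of lens epithelium, differed by -0.01 (SE 0.18). Thy1, found on fibroblasts and neurons, had signals of 318 to 562 in KO, against 169 to 262 in WT (difference 0.83, SE 0.29). All 4 KO lenses lay above all WT lenses at Thy1, where 5.33% of all probe sets had no overlap in either direction. Ogn, the proteoglycan osteoglycin, differed by 0.01 (SE 0.20). None of the 10 passed the limma adjustment.

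Counts in brackets give the markers above the highest bacterial control in at least 1 lens. Summed photoreceptor markers (4 of 4) were 33259 to 48350 in KO and 27659 to 51037 in WT. Summed skeletal muscle markers (5 of 5) were 8562 to 35239.5 in KO and 7120.0 to 49020.0 in WT, highest in 2L. Pigment cell markers (6 of 6) summed to 14269 to 42657 in KO and 7647 to 23658 in WT, highest in KO 7L. Pericyte and smooth muscle markers summed to 24175 to 24742 in KO and 14347 to 25283 in WT, lowest in 2L. Acta2 (13955 to 15956 in KO, 7796 to 17437.5 in WT) and Pdgfrb (7166 to 8815 and 4082 to 6984) carried this sum. Myh11 and Tagln reached only 378 and 377, and Cnn1 of the 6 lay under the highest control throughout. Markers of corneal and conjunctival epithelium (4 of 4) summed to 741 to 12538 in KO, with 7L lowest, and 5664 to 13891 in WT. Endothelial markers summed to 574 to 716 in KO and 370 to 678 in WT, with Pecam1 and Tie1 of the 5 under the highest control throughout. Macrophage markers (6 of 6) summed to 1357 to 2210 in KO and 626 to 1227 in WT. Several counted markers were weak: Krt14 and Cd68 did not exceed the highest control in 4 lenses each, Ptprc in 3 and C1qa in 2. The part of these cell types in the collagen values was not tested.

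**Figure D4:**
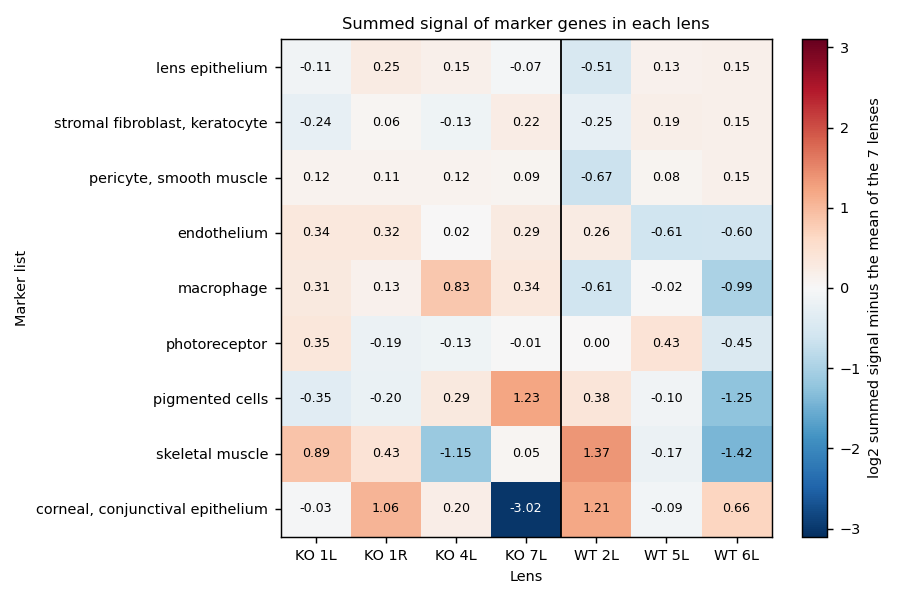
Heat map of the summed signal of marker genes for 9 cell types (rows) in the 4 KO and 3 WT lenses (columns), as log2 of the sum minus its mean over the 7 lenses. Each sum follows mostly the brightest genes of its list. Corneal and conjunctival markers are at -3.02 in KO 7L, and lens epithelium and pericyte markers are lowest in WT 2L, at -0.51 and -0.67. The sums are of deposited signals, and the WT 2L array had the lowest maximum signal, 28328. After quantile normalization Cryaa and Cryab, the brightest lens markers, had SDs of only 0.11 and 0.09 log2 over WT animals.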

How the data were processed

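The authors deposited intensity values, 1 linear summary signal per probe set and lens. Tested on the table, every array had a mean signal of 500.003 or 500.004 after trimming 2% at each end. The sources used here do not name the summary software, background correction or genome build. Amplification in 2 rounds favours probe sets near the 3′ end of a transcript.

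From 45101 probe sets, 64 controls were left out. Values were turned into log2(signal + 16), which understates changes of weak probe sets, and quantile normalized. The log2 scale was computed here from the deposited signals. The pair of lenses from KO animal 1 was averaged. The groups were then set against each other per animal with limma 3.58.1 in R 4.3.3 (intensity trend, two-sided, Benjamini-Hochberg over 45037 probe sets, threshold 0.05). Background was gauged from 27 bacterial control probe sets (0.199 to 45.5). Precision is limited by the small number of arrays.

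Symbols came from the platform annotation, and all 9 genes were found by gene number in the RefSeq table. Besides the members, the text names the 3 genes of each of the lists of other collagens, processing enzymes and receptors with the smallest unadjusted p, the 8 genes most like the mean profile, and marker genes. The members and lists were chosen with earlier results of these data known.

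In each of 20 simulated runs over 45037 probe sets, 200 probe sets above the median level were changed, with independent normal noise. The KO against WT fit recovered 53.3% of the 4-fold changes. It recovered 4.8% of those of 2-fold and 84.1% at 8-fold. False calls averaged 3.25. Weaker probe sets were left unchanged in the simulation, so the recovery rates do not cover them. Alternatives were the 7 lenses as separate samples, KO animal 1 by 1L or by 1R only, median centring, the signals as deposited, a filter on low values, no trend, array weights, pseudocounts of 1 and 64, the mean of a gene's probe sets, and each animal left out.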

Additional observations from a re-analysis of the deposited data

Results flagged for a closer look

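Of 17 collagen probe sets above the highest bacterial control in at least 1 lens, 1 had a KO lens far from the other 3 KO lenses. The weaker Col1a1 probe set was at 6.84 on the log2 scale in KO lens 7L and at 7.44 to 7.49 in 1L, 1R and 4L (signals 101 against 155 to 174). The gap was 0.913 of the range of the 4 lenses, above Dixon's critical value at 95% for 4 samples. Chance flags about 1 in 20 groups, so 1 of 17 is near that rate, and 1L and 1R come from 1 animal. At the leading Col1a1 probe set 7L was not set apart.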

How the results depend on the processing

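No collagen chain passed the limma adjustment at its leading probe set under the alternatives listed above that were tested (lowest adjusted p 0.684). The mean of a gene's probe sets was computed as a value with no test. Over all probe sets 2 or 3 passed. The median log2 difference of the collagen probe sets stayed below 0, at -0.34 without WT animal 2 to -0.01 without WT animal 5, and 11 to 14 were lower in KO. Of 153 alternative values for single genes, 13 turned sign, all in Col1a1, Col3a1, Col5a1, Col6a1 and Col6a2. Col3a1 was at -0.175 with lens 1L alone for KO animal 1 and at -0.0649 with median centring, and Col5a1 at -0.0408 as the mean of its probe sets. With each animal left out in turn, Col1a1 ran from -1.17 to 0.26, Col3a1 from -0.482 to 0.915, Col5a1 from -0.23 to 0.62, Col6a1 from -0.895 to 0.0111 and Col6a2 from -0.65 to 0.16. The cause was not tested. The beta-actin ratio, KO minus WT, was -0.06 with both lenses averaged, 0.61 with lens 1L alone and -0.72 with lens 1R alone. The filter on low values kept 15 of the 20 collagen probe sets. No paired analysis was possible because KO and WT animals share no replicate numbers. The 3 animals a group and signals near the bacterial controls limit what could be seen.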
